A study of Homo sapiens with 6 samples.

Results

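The 38 genes described here encode factors that make ribosomes in the nucleolus. They were chosen by gene symbol, under a rule that uses no measured values. Earlier results of these data were known when the list was made, so its shares and medians are descriptions without a test. All 38 were found among the 23459 gene rows of the count table. The table comes from RNA-seq of 6 libraries of Raji cells, an established human Burkitt's lymphoma line with a germinal centre phenotype. Both groups of 3 libraries came from cells infected with lentivirus for 5 days and then kept for 7 days under puromycin selection (3 µg/ml). The vector carried no insert in the control group and human IRF4 cDNA in the IRF4-overexpressing group (IRF4OE), and the labels do not give the promoter that drove it. Infected cells were selected as a population, and no cloning step is described. The labels do not say whether replicates were separate infections or cultures, so the p-values rest on a spread between libraries that may be technical only.

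Ribosome production starts when RNA polymerase I transcribes the ribosomal DNA into a long precursor RNA. Small nucleolar ribonucleoproteins then modify this precursor, the box C/D class by methylating riboses and the box H/ACA class by converting uridine to pseudouridine. Large assemblies cut and fold the RNA into the small and large subunits, which are exported and finished in the cytoplasm. Genes of this machinery are known targets of MYC, the transcription factor whose gene is rearranged in Burkitt's lymphoma, and cells that grow fast express them highly. The libraries were poly(A)-selected, so these values are mRNA levels of the factors, and ribosomal RNA itself was not analysed here.

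IRF4, a regulator of the plasma cell program, served to check the labels. It was at 1.02, 1.38 and 1.37 CPM (counts relative to the scaled library size) in controls 1, 2 and 3 and reached 150.0, 120.5 and 125 CPM in IRF4OE replicates 1, 2 and 3. Below, values per library follow this order. Libraries held 27681979 to 46210702 counts. The 10 germinal centre B cell markers were all detected and summed to 5424 to 6276 CPM in control and 5068 to 6221 CPM in IRF4OE libraries. Ten-gene marker lists of other cell types summed to far less. Myeloid markers ran from 2.86 to 3.27 CPM in control and from 5.73 to 9.01 CPM in IRF4OE libraries, with S100A9 and MPO at 0 in all 6. T and NK cell markers were at 0.335 to 0.520 CPM and 0.622 to 0.891 CPM, with CD2, CD8A and GNLY at 0. Epithelial and kidney markers were at 0.0996 to 0.301 CPM and 0.349 to 0.864 CPM (6 genes at 0, EPCAM among them), and mesenchymal and endothelial ones at 1.07 to 2.05 CPM and 2.40 to 5.44 CPM (4 at 0). Each of these 4 sums was higher in every IRF4OE library than in any control library. Much of the rise came from ITGAM and CSF1R among myeloid, CDH1 among epithelial and COL1A1 among mesenchymal markers. CDH1 was at 0.0747, 0 and 0.0547 CPM in control and 0.262, 0.783 and 0.331 CPM in IRF4OE libraries. Other markers, such as LYZ, KRT8, PRF1 and VWF, overlapped between the groups. The part of these sums in the results below was not tested. MYC had 211, 249.7 and 263 CPM in control against 272, 187 and 177 CPM in IRF4OE libraries, and the groups overlapped (log2 fold change -0.19, SE 0.18, edgeR adjusted p = 0.54).

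Levels were compared between genes per length, as CPM per kilobase of the gene width given in the table. By this measure the 38 genes spanned from 2.66 for BOP1 to 788 for NCL as means over the 6 libraries. NCL, encoding nucleolin, a major protein of the nucleolus that binds precursor ribosomal RNA, was at 1027 ± 143 CPM per kilobase in control and 549 ± 372 in IRF4OE libraries (SD, n = 3 each). Next came NPM1, encoding the nucleolar chaperone nucleophosmin, at 430.3 ± 49.0 and 427 ± 69.2 CPM per kilobase (SD, n = 3 each). NOP56, NOP10, NHP2, EBNA1BP2 and GNL3 followed between 192 and 169.5 CPM per kilobase as means over both groups, but their order differed between groups. NOP56 was the third highest gene in control at 207 CPM per kilobase and had 177 in IRF4OE libraries, where NOP10 took that place at 209.8 after 173 in control. PA2G4, at 181 CPM per kilobase in control, lay there above NOP10, EBNA1BP2 and GNL3. The plot of levels per length shows that these neighbours overlap between libraries.

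**Figure D1:**
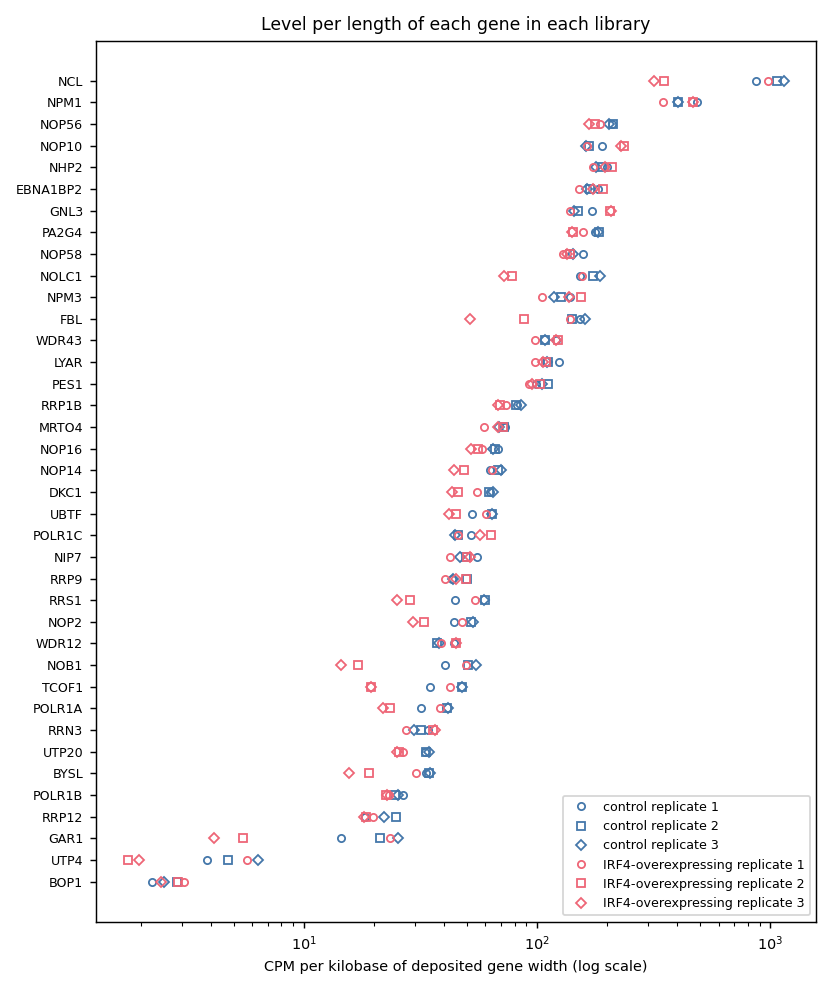
Level of each of the 38 genes in each of the 6 libraries, as CPM per kilobase of gene width on a log scale (blue, control; red, IRF4OE; the symbol shape gives the replicate). NCL leads at a mean of 788 and BOP1 is lowest at 2.66, and for NCL, NOLC1, FBL, NOB1, TCOF1 and GAR1 the red squares and diamonds (replicates 2 and 3) lie to the left of the other symbols.

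The lowest levels belonged to BOP1, UTP4 and GAR1, at 2.66, 4.05 and 15.6 CPM per kilobase. BOP1 forms a complex with PES1 and WDR12 that is needed for the large subunit. BOP1 was far below these partners, which were at 101 and 41.3 CPM per kilobase. BOP1 was at 5.30, 6.77 and 5.94 CPM in control and 7.27, 6.81 and 5.76 CPM in IRF4OE libraries, from 182 to 278 counts per library. The groups overlapped, and how the submitters' counting treated reads that map to more than 1 place is not given in the sources used here. Of the 38 genes, 28 had a mean between 100 and 1000 CPM.

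Promoter sequences show what many of these genes share apart from their counts. In RefSeq windows of 250 bases before to 50 bases after each annotated start (GRCh38.p14), 31 of the 38 genes had an entry, 8 of them with more than 1 window. The table holds none for BOP1, NOLC1, NOP58, RRP12, RRP1B, RRS1 and TCOF1. The E-box CACGTG, which reads the same on both strands and is bound by MYC with its partner MAX and by related factors, was present in 15 of the 31 genes, or 48.4%. Among the 9502 tested genes with an entry, 12.9% held it, and 7.26% of all 35116 windows did. In 14 of the 31 genes, or 45.2%, its first base lay within 50 bases of a start, against 5.58% of tested genes, a distance chosen after the positions were seen. Upstream bases alone held it in 5 of the 31 genes (16.1%), against 11.5% of tested genes. Not all genes that the results turn on hold the E-box. PA2G4, DKC1, NOP16 and NOP56, which are lower at an unadjusted p under 0.05 by edgeR below, had an entry without it. NCL and NPM1 also had an entry without it. The 6 windows of 30 bases below were picked from genes that hold the E-box, and centre on the one nearest the start. They lie at chr12:101280083-101280112 on the plus strand (UTP20), chr19:39846356-39846385 on the minus strand (FBL), chr3:52686026-52686055 on the plus strand (GNL3), chr6:41921515-41921544 on the plus strand (BYSL), chr4:109815781-109815810 on the plus strand (GAR1) and chr15:34343130-34343159 on the minus strand (NOP10). Capitals mark the E-box and each line runs 5′ to 3′ along the gene's strand.
UTP20: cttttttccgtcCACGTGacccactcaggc
FBL: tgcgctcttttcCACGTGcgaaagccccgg
GNL3: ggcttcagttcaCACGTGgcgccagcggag
BYSL: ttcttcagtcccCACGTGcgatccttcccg
GAR1: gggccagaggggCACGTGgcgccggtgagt
NOP10: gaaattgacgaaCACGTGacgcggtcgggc
The E-box began 10 and 11 bases before the start in UTP20 and NOP10, and at base 7 of the transcript in FBL and GNL3, base 29 in BYSL and base 32 in GAR1. The core of the element bound by interferon regulatory factors, GAAA followed after 2 bases by GAAA on either strand, was found in 1 of the 31 genes, POLR1B, or 3.23%, against 4.22% of tested genes. A match is a description of these letters and not evidence of binding.

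**Figure D2:**
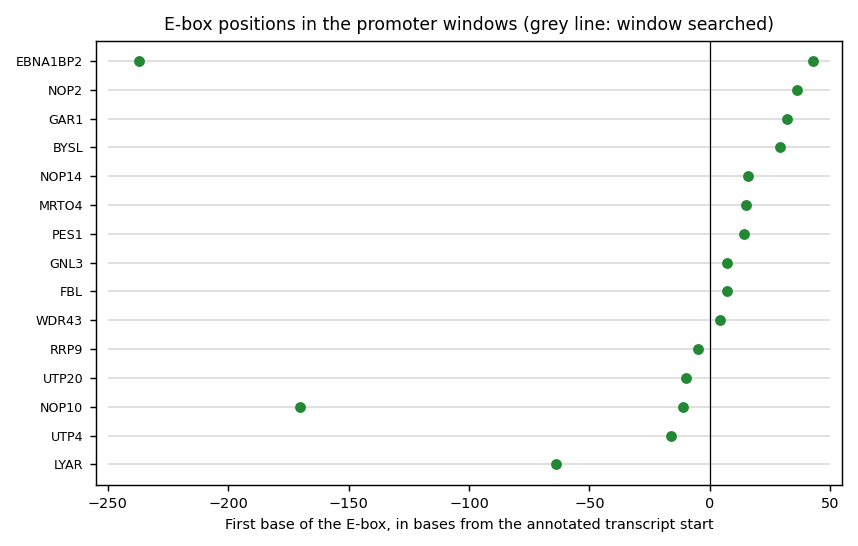
Position of the E-box in the 15 genes that hold it, as bases from the annotated transcript start to its first base (each point is 1 E-box; the grey lines span the 250 bases before and 50 bases after the start; 2 windows of EBNA1BP2 are drawn together). The points of 14 genes include 1 within 50 bases of the start, and LYAR has its E-box 64 bases before it.

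Between the groups, most of these genes had a negative log2 fold change (IRF4OE over control), several of them close to 0. No single gene passed edgeR's test over all genes. By edgeR's quasi-likelihood test, 0 of 38 were called higher and 0 lower at an adjusted p under 0.05, beside 2.98% of the 12079 tested genes called higher and 0.182% called lower. Limma-voom also called 0 (2.81% of all genes higher, 0.182% lower), and DESeq2 called 2 lower, UTP20 and PA2G4 (DESeq2 adjusted p = 5.85e-04 and 0.0426), and 0 higher, where its shares over all genes were 1.46% and 4.09%. At an unadjusted p under 0.05, 8 of the 38 were lower and 0 higher, or 21.1%, against 8.18% of all tested genes lower and 11.3% higher. In bulk RNA, fewer cells that express a gene and less RNA per cell cannot be told apart.

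Of the 38 genes, 28 had a negative log2 fold change and 10 a positive one (73.7% negative, against 49.0% of all genes tested). The median log2 fold change was -0.22, against 0.01 for all genes, and single genes ran from -0.90 for NCL to 0.27 for NOP10. With library sizes alone the 2 medians were -0.13 and 0.10, so the distance between them was -0.23 under either scaling. Abundant genes as a class also had more negative values than all genes. Among the 2565 genes between 100 and 1000 CPM on average, the median was -0.09 and 63.5% were negative. The 28 members in that class had a median of -0.19, with 21 negative.

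**Figure D3:**
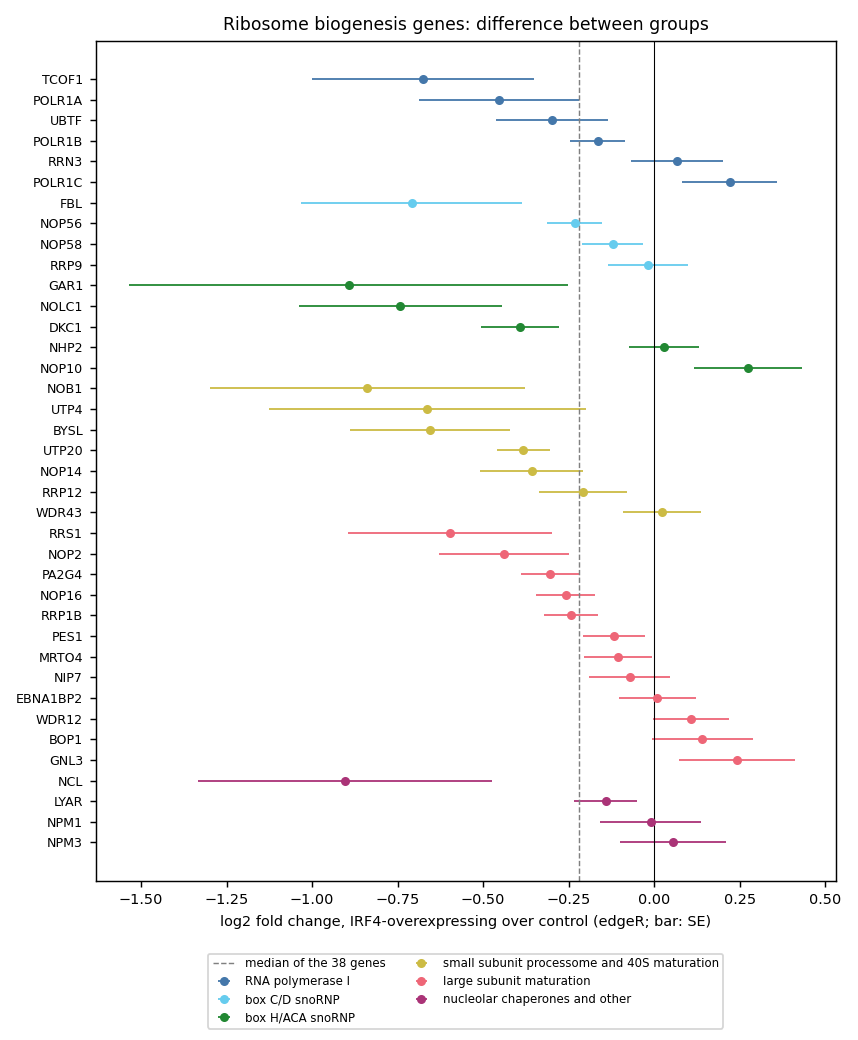
Log2 fold change of each of the 38 genes, IRF4OE over control, from edgeR (points, coloured by role; bars, standard error; dashed line, the median of -0.22). Genes far to the left, such as NCL and GAR1, have wide bars, and UTP20, PA2G4, NOP16 and RRP1B lie at -0.38 to -0.24 with narrow ones.

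Summed over the 38 genes, expression came to 10799, 11418 and 11637 CPM in control against 10270.3, 8257 and 7817 CPM in IRF4OE libraries. The groups did not overlap, and IRF4OE replicate 1 lay nearest the controls. NCL alone made up a large part of the distance. Without it the sums were 8494 ± 46.6 CPM for control against 7290.3 ± 331 CPM for IRF4OE (SD, n = 3 each).

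In 10 of the 38 genes (26.3%) every IRF4OE library was below every control library, and in 0 the reverse held. Over all tested genes the shares were 11.9% lower and 13.5% higher, and over the class of 100 to 1000 CPM, 23.6% lower and 4.33% higher. The 10 genes were UTP20, PA2G4, DKC1, RRP1B, NOP16, NOP56, BYSL, FBL, POLR1B and LYAR. Of the 28 members in that class, 9 were among the 10. For an unadjusted p under 0.05 the abundant class had 17.4% lower and 3.39% higher, and 7 of the 28 members in it were.

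The smallest p belonged to UTP20, a very large scaffold protein of the small subunit processome, the assembly that folds and cuts the early precursor. UTP20 was at 316, 319 and 328 CPM in control and 255, 244 and 240.2 CPM in IRF4OE libraries. The 3 control libraries lay close together, well above the other 3, which also lay close together. Its log2 fold change was -0.38 (SE 0.08, unadjusted p = 0.0017, edgeR adjusted p = 0.0517), just outside the threshold. UTP20 passed with median-ratio size factors (edgeR adjusted p = 0.0496, the 1 member called there, beside 0.174% of all genes lower and 2.86% higher) as well as by DESeq2. With library sizes alone, no filter and the stricter filter its edgeR adjusted p was 0.101, 0.0874 and 0.0672, and 0 members passed, beside 4.16%, 2.06% and 2.59% of all genes higher and 0.108%, 0.0922% and 0.145% lower. Its log2 fold change stayed between -0.42 and -0.36 when single libraries were left out.

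Among large subunit factors, PA2G4, NOP16 and RRP1B were lower in all 3 IRF4OE libraries. PA2G4, also called EBP1, a regulator of growth found in the nucleolus and on ribosomes, was at 465, 484 and 479.8 CPM in control and 414, 373 and 369.7 CPM in IRF4OE libraries (log2 fold change -0.30, SE 0.08, edgeR adjusted p = 0.132). A pseudogene of PA2G4 has a row of its own in the table, so the value depends on how shared reads were assigned. NOP16, a factor of early large subunit particles, was at 126, 123 and 121 CPM and at 109, 104 and 96.8 CPM (-0.26, SE 0.09, edgeR adjusted p = 0.184). RRP1B, a nucleolar protein of the RRP1 family, was at 473, 468 and 492 CPM and at 422, 398 and 391 CPM (-0.24, SE 0.08, edgeR adjusted p = 0.179). In each of these genes the difference between the group means was larger than the SD of either group. Their choice by an unadjusted edgeR p under 0.05 favours such a difference. None passed by edgeR with all 6 libraries and group as the sole term.

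In the snoRNP classes, DKC1, which encodes dyskerin, the pseudouridine synthase of box H/ACA particles, was at 162, 159.9 and 167 CPM in control and 143, 118 and 111 CPM in IRF4OE libraries (-0.39, SE 0.11, edgeR adjusted p = 0.142). NOP56, a core protein of box C/D particles, was at 488, 493 and 474 CPM and at 433, 414 and 392 CPM (-0.23, SE 0.08, edgeR adjusted p = 0.195). For both, the 3 IRF4OE libraries were all below the controls, and replicate 1 was the highest of them. BYSL and NOLC1 had larger fold changes and more spread. BYSL, which encodes bystin, a factor of 40S maturation, was at 66.1, 68.6 and 68.8 CPM and at 60.4, 37.8 and 31.1 CPM (-0.66, SE 0.23, edgeR adjusted p = 0.202). NOLC1, whose product shuttles snoRNPs and bridges them to polymerase I, was at 605, 692 and 736 CPM and at 621, 309 and 287 CPM (-0.74, SE 0.30, edgeR adjusted p = 0.236). In NOLC1 the groups overlapped, because IRF4OE replicate 1 was above control replicate 1.

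**Figure D4:**
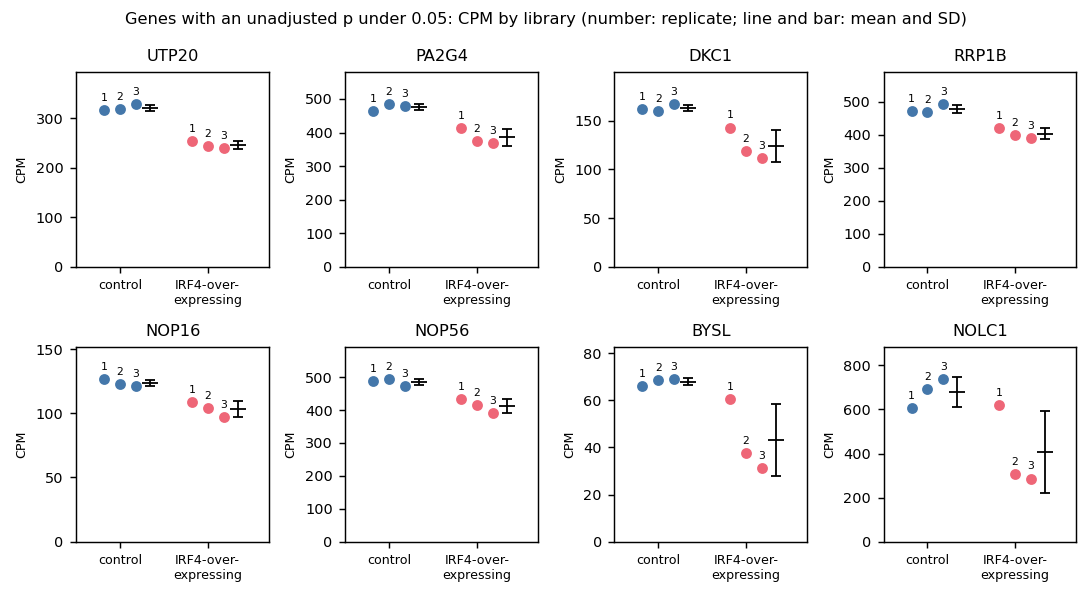
CPM in each library for the 8 genes with an unadjusted p under 0.05 (blue, control; red, IRF4OE; numbers, replicates; black line and bar to the right, mean and SD of 3). UTP20, PA2G4, RRP1B, NOP16 and NOP56 form a tight set of points per group, while for BYSL and NOLC1 IRF4OE replicate 1 stands near the controls and replicates 2 and 3 far below.

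By role, the polymerase I genes had a median log2 fold change of -0.23 over 6 genes. TCOF1 (treacle, a cofactor of ribosomal DNA transcription) had -0.68, POLR1A (the largest subunit) -0.45, UBTF (the upstream binding factor) -0.30 and POLR1B (the second largest subunit) -0.17. RRN3, the initiation factor also called TIF-IA, had 0.07, and POLR1C, a subunit shared with polymerase III, had 0.22. POLR1B was at 146, 136 and 139 CPM in control and 127, 124 and 125 CPM in IRF4OE libraries without overlap, and its edgeR adjusted p was 0.298. RRN3 has expressed pseudogene rows in the table and is uncertain for that reason.

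The 4 box C/D genes had a median of -0.18. The 5 genes grouped as box H/ACA had one of -0.39 with NOLC1, and of -0.18 over the 4 genes of particle proteins without it. FBL, the methyltransferase fibrillarin, was at 311, 288 and 327 CPM in control and 283, 179 and 105 CPM in IRF4OE libraries (-0.71, SE 0.32, edgeR adjusted p = 0.277). FBL differed widely between IRF4OE replicates 2 and 3. NOP58, the partner of NOP56, had -0.12 and RRP9, a protein of the U3 particle, -0.02. All 4 box C/D genes were thus negative, though the value of RRP9 was smaller than its SE of 0.12 and turned positive with library sizes alone. The 4 genes of box H/ACA particle proteins differed in sign, and a difference between the classes was not tested. GAR1 had -0.89 (SE 0.64) and DKC1 -0.39, while NHP2 and NOP10, which sit in the same particle, had 0.03 and 0.27 (SE 0.10 and 0.16). None of these passed by edgeR with all 6 libraries and group as the sole term.

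Small subunit and 40S factors had a median of -0.38 over 7 genes, with NOB1, the endonuclease that makes the end of 18S RNA, at -0.84, UTP4 at -0.66 and NOP14, of the small subunit processome, at -0.36. RRP12, an export factor, had -0.21, and WDR43, a processome subunit, 0.02. The 12 large subunit genes had a median of -0.11. RRS1, which helps load the 5S particle, had -0.60 and NOP2, an RNA methyltransferase, -0.44. The PES1, BOP1 and WDR12 complex had -0.12, 0.14 and 0.11. The GTPase gene GNL3 (nucleostemin) had 0.24, and MRTO4, NIP7 and EBNA1BP2, all factors of pre-60S particles, had -0.11, -0.07 and 0.01. Of the 4 remaining genes, NCL had -0.90 (SE 0.43, edgeR adjusted p = 0.288), LYAR, a nucleolar zinc finger protein gene, -0.14, NPM1 -0.01 and NPM3, of the same chaperone family as NPM1, 0.05.

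The larger fold changes came with large differences between libraries of the same group. Around the group means, 74.3% of the variance over all tested genes lay on 1 principal component of log2 CPM. It set control replicate 1 and IRF4OE replicates 2 and 3, called set A here, apart from control replicates 2 and 3 and IRF4OE replicate 1, called set B. These sets were read from the counts and are no groups of the study, so ratios along the axis carry no test. In 16 of the 38 genes (42.1%) set A lay below set B in both groups without overlap, and in 14 (36.8%) above it, beside 30.4% and 32.4% of all tested genes. By this count 30 of the 38 genes followed the axis in 1 direction or the other. Such counts are raised by construction, because the sets were read from these same genes.

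NCL had 2356, 2915 and 3102 CPM in control against 2657, 952 and 864 CPM in IRF4OE replicates 1 to 3. IRF4OE replicate 1 thus lay inside the control range, and the other 2 were lower, by 2.92-fold on average. GAR1 was at 28.3, 41.8 and 49.9 CPM and at 45.9, 10.8 and 8.12 CPM, and the mean of replicates 2 and 3 was 4.85-fold below replicate 1. NOB1 was at 71.2, 89.5 and 96.6 CPM and at 88.2, 30.1 and 25.7 CPM. UTP4, a processome subunit, had 18.5, 22.9 and 30.7 CPM against 27.6, 8.56 and 9.51 CPM. GAR1, NOB1 and UTP4 were chosen as the low end of the axis, which counts the ratio within control too, and NCL for its level per length. In NCL, GAR1, NOB1 and UTP4, control replicate 1 was at 0.783, 0.617, 0.766 and 0.691 of the mean of the other 2 controls.

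GNL3, NPM1 and NOP10 were chosen in the same way as the high end of the axis. GNL3 was at 369, 323 and 311 CPM in control and at 298, 441 and 447 CPM in IRF4OE libraries. NPM1 was at 867, 718 and 713 CPM and at 618, 833 and 830.1 CPM, so that the group means of 766 and 761 CPM hide a pattern shared by both groups. NOP10 was at 102, 89.6 and 87.0 CPM and at 87.8, 127 and 122 CPM. By that choice, control replicate 1 was the highest control and IRF4OE replicate 1 the lowest of its group in these 3 genes.

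**Figure D5:**
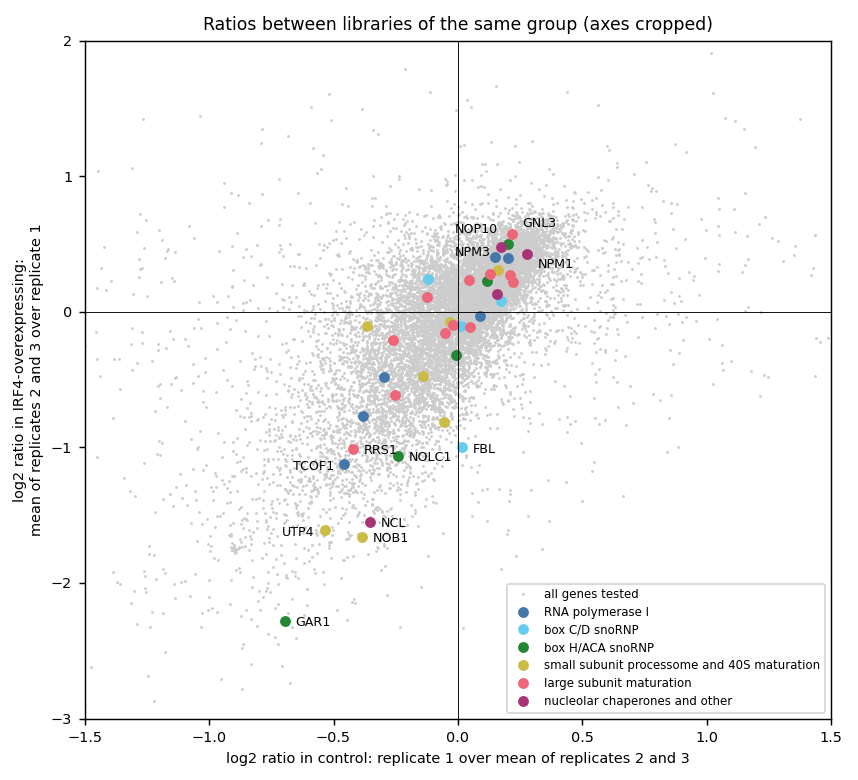
For each gene, the log2 ratio of control replicate 1 to the mean of control replicates 2 and 3 (horizontal) and of the mean of IRF4OE replicates 2 and 3 to replicate 1 (vertical), with the 38 genes coloured by role over all tested genes in grey. GAR1, NOB1, UTP4 and NCL lie at the lower left, GNL3, NOP10, NPM3 and NPM1 at the upper right, and FBL falls below the others near 0 on the horizontal axis.

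Across the 38 genes the 2 within-group ratios had a Pearson r of 0.86 and a Spearman rho of 0.86, against 0.61 and 0.64 over 12067 tested genes, all from the same 6 libraries. Both ratios are oriented by the sets, which were read from these counts, so these correlations are raised by construction. The control ratio had a Spearman rho of -0.51 with the GC content of the longest annotated transcript and -0.41 with gene width over the 38 genes, against -0.55 and -0.14 over all genes. For the IRF4OE ratio the values were -0.32 and -0.34 for the 38 genes, and -0.23 and -0.34 over all. Genes are not independent replicates, and the part of GC content or width in the axis was not tested.

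The number of calls changed with the libraries used. Without IRF4OE replicate 1, 19 of the 38 genes passed as lower and 3 as higher (GNL3, NOP10 and POLR1C), beside 25.1% and 19.9% of all tested genes. Both remaining libraries of that group are in set A, so this fit mixes the group with the axis. The main comparison is not balanced over the sets either, since set A holds IRF4OE replicates 2 and 3 but only control replicate 1. The median log2 fold change of the 38 genes was -0.22 there, against 0.01 for all genes. It was -0.19 with a term for the set, against -0.02 for all genes. The part of the axis in the main differences was not tested. Leaving out control 1, 2 or 3, or IRF4OE 2 or 3, gave 0 calls among the 38, beside 1.02%, 0.975%, 1.11%, 1.25% and 1.28% of all genes higher and 0.0244%, 0.0244%, 0.0245%, 0.0245% and 0.0246% lower. With a term for the set, 3 genes passed as lower, UTP20, PA2G4 and DKC1 (edgeR adjusted p = 0.0118, 0.0327 and 0.0491), and 0 as higher, beside 3.22% and 5.87% of all genes, and these p are too small because the sets were read from the counts.

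The fits within a set have 1 library in an arm, assumed to vary like the others, and their spread comes from libraries grouped for being alike, so their p are too small and their calls carry no weight beyond the fold changes. Within set A alone, with 1 control library, 22 of the 38 were called lower and 3 higher, beside 24.8% and 18.4% of all genes. Within set B alone, with 1 IRF4OE library, 3 were called lower, UTP20, NCL and NPM1, and 0 higher, beside 3.28% and 6.99%. As values without a test, UTP20 had log2 fold changes of -0.39 and -0.31 in sets A and B, and PA2G4 -0.33 and -0.18. NCL had -1.38 and -0.14, and GAR1 and UTP4 had 0.03 and 0.07 within set B. The median of the 38 genes was -0.26 within set A and -0.11 within set B, and the difference between the sets was not tested.

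By median, the other genes of the pathway lay closer to 0 than the members. Members and lists were chosen with earlier results of these data known, so this distance carries no test. Of 139 other ribosome biogenesis genes tested, 0 were called in either direction by edgeR, with 15 lower (10.8%) and 1 higher at an unadjusted p under 0.05, beside 8.18% and 11.3% of all genes. DESeq2 called 3 of them lower (DDX21, BUD23 and SBDS), or 2.16%, beside 1.46% of all genes. Both lower shares were near the background. Their median log2 fold change was -0.04, and 84 were negative. Every IRF4OE library was below every control library in 26 of them (18.7%, beside the 11.9% of all genes). The lists of 11 polymerase I, 10 snoRNP assembly, 50 small subunit, 51 large subunit and 17 RNA exosome genes had medians of -0.11, -0.01, -0.04, -0.04 and 0.02.

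DDX21, a helicase of polymerase I transcription and early processing, was at 1434, 1345 and 1365 CPM in control and 1146, 993 and 1040.0 CPM in IRF4OE libraries (-0.38, SE 0.09, edgeR adjusted p = 0.0884). SBDS, which helps release the factor EIF6 from new large subunits, was at 139.5, 135 and 136 CPM and at 112, 103 and 109.9 CPM (-0.33, SE 0.08, edgeR adjusted p = 0.0986). Both show small differences without overlap, as UTP20 does. BMS1, a processome GTPase, and BUD23, a methyltransferase of 18S RNA, had -0.40 and -0.44 (edgeR adjusted p = 0.141 and 0.129). WDR74, a large subunit factor, was the other way, at 169, 169.5 and 156 CPM in control and 178, 252 and 293 CPM in IRF4OE libraries (0.55, SE 0.18, edgeR adjusted p = 0.178). The helicase gene MTREX, a partner of the exosome, had -0.31, MPHOSPH6 -0.22, TTF1, which ends polymerase I transcription, -0.16, the box C/D protein gene SNU13 -0.20 and the assembly factor gene PIH1D1 0.36, and none passed by edgeR with all 6 libraries and group as the sole term.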

How the data were processed

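The values are the authors' deposited raw read counts per Entrez gene, 1 column per library, unscaled and unpooled as judged from the values, plus 1 deposited width per gene in bases. The authors' control columns are named WT in the table. The builds mm9 and hg19 are named in the submitters' processing notes, of which only the second is human. Libraries were stranded and poly(A)-selected, per the labels' protocols. The aligner, counter, annotation and strand setting are not given in the sources used here, so overlapping or near-identical genes may share reads. Symbols came from the RefSeq gene table of GRCh38.p14, which matched 23308 of 23459 rows.

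The comparison used edgeR 4.0.16 in R 4.3.3 with group as the sole term, TMM scaling and filterByExpr, which kept 12079 genes, all 38 members among them. P-values from its quasi-likelihood F-test (two-sided) were adjusted by Benjamini-Hochberg over these genes, and a gene was called when this value was under 0.05. CPM used TMM-scaled library sizes, and SE is the absolute log2 fold change divided by the square root of F. Alternatives were DESeq2 1.42.0, limma-voom (limma 3.58.1), 2 scalings, 2 filters (none, and at least 1 CPM in 3 libraries), a replicate block, a term for the library set, each set alone, and leaving out each library. The planned comparison of protein sequences was not run. GC content was known for 94.3% of tested genes. Figures used matplotlib 3.10.9.

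The members, lists and tests were chosen with earlier results of these data known. Named genes were all members, IRF4, MYC and the 2 other pathway genes with the smallest p per list. Every library is given for members with an unadjusted p under 0.05, called with all 6 libraries, at either end of the levels per length or at either end of the library axis, and for FBL and POLR1B, added after their values were seen. On simulated counts for this comparison (12079 genes, 200 changed), the test recovered 4.48% of 1.5-fold, 58.2% of 2-fold and 97.0% of 4-fold changes, with 9 false calls among 115. No replicate pair agreed within sampling noise (chi-square per gene from 6.48 to 185).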

Additional observations from a re-analysis of the deposited data

How the results depend on the processing

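Counts of the 38 genes ran from 182 (BOP1) to 113420 (NCL) per library. On simulated counts for this comparison, which lack the shared library axis, the test recovered 4.48% of 1.5-fold changes. Most differences here were smaller than that. Of the 380 values of single members under the 10 alternatives that keep whole groups or a set, 325 kept their sign and stayed uncalled, 34 were called and 21 changed sign.

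Calls with the set term or within a set rest on sets read from the counts and have p that are too small. Members called lower numbered 1 with median-ratio size factors, 2 with DESeq2, 3 with the set term, 22 within set A and 3 within set B, against 0, and members called higher numbered 3 within set A. Without single libraries they ran from 0 to 19 lower and 0 to 3 higher. Other pathway genes called lower numbered 3 with DESeq2, 9 with the set term, 40 within set A and 6 within set B, and those called higher 12 within set A and 2 within set B (TAF1C and LTV1). Without single libraries these ran from 0 to 36 lower and 0 to 16 higher. The members' median of -0.22 was -0.13 with library sizes alone and -0.11 within set B, and -0.27 to -0.18 without single libraries. Upstream bases alone held the E-box in 16.1% of members in place of 48.4%, a narrower window by construction.

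The sign of some uncalled values changed, and the cause was not tested. With the set term these were RRN3 (-0.036), NHP2 (-0.031), WDR43 (-0.060), EBNA1BP2 (-0.063) and NPM3 (-0.068). Within set B they were RRN3 (-0.13), NHP2 (-0.050), GAR1 (0.031), UTP4 (0.066), WDR43 (-0.10), GNL3 (-0.054), EBNA1BP2 (-0.10) and NPM3 (-0.19), and within set A RRP9 (0.13) and RRP12 (0.0015). With library sizes alone they were RRP9 (0.077), NIP7 (0.024) and NPM1 (0.086). EBNA1BP2 was at -0.0027 with median-ratio size factors, -0.0098 with no filter and -0.013 with DESeq2. Without single libraries RRN3 ran from -0.0072 to 0.18, RRP9 from -0.093 to 0.047, NHP2 from -0.032 to 0.090, WDR43 from -0.030 to 0.11, NIP7 from -0.13 to 0.0028, EBNA1BP2 from -0.071 to 0.086, NPM1 from -0.078 to 0.11 and NPM3 from -0.070 to 0.19.

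Over all genes, 360 were called higher and 22 lower. DESeq2 called 561 and 200, the set term gave 709 and 389, and leaving out IRF4-overexpressing replicate 1 gave 2436 and 3071. Leaving out any other single library gave 120 to 156 higher and 3 lower, and library sizes alone gave 503 and 13.

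Deviations of same-numbered libraries from their group means had correlations of -0.65, -0.22 and -0.47. Most of that variance lay on the library axis, so these values cannot show whether same-numbered libraries were prepared together. With the replicate block 0 members were called and UTP20 had an edgeR adjusted p of 0.372. Over all genes 3 were called higher and 0 lower in that fit.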

Other observations

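Several of these genes carry small nucleolar RNA genes inside their own span in the RefSeq annotation of GRCh38.p14. This held for 6 of the 38 genes (15.8%), against 1.85% of the 12079 tested genes. They were NOP56 and GNL3 with 5 such genes each, NOP58 with 4, NCL and WDR43 with 3 each and DKC1 with 2. Their log2 fold changes had both signs, at -0.23, 0.24, -0.12, -0.90, 0.02 and -0.39 in that order. A start at a C followed by at least 4 pyrimidines, the pattern of mRNAs with a terminal oligopyrimidine tract, was annotated in 4 of the 31 genes with a promoter entry (12.9%, against 7.58% of tested genes). These were EBNA1BP2, FBL, NOB1 and NPM1.

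The annotation also shows where single values are uncertain. A protein-coding gene overlaps 8 of the 38 genes, among them BYSL (MED20), NOP16 (ARL10), GNL3 (GLT8D1) and POLR1C (XPO5). Pseudogenes of the same name exist for 12, with 50 for NPM1, none of which has a row in the table. For PA2G4, 1 of 6 has a row, with 11673 counts over the 6 libraries against 95146 for the gene, and for RRN3, 3 of 4 do, with 9575 against 28311.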
